A study of Drosophila melanogaster with 6 samples.

Results

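A set of 9 sensory transient receptor potential (TRP) channel genes of the fly was followed here in ribosome-bound mRNA from male heads. The 9 genes are *pain*, *pyx*, *TrpA1* and *wtrw* of the TRPA group, *iav* and *nan* of the TRPV group, *Trpgamma* of the TRPC group, *Trpm* and *Trpml*. They were chosen by name from the TRP family, out of 17489 genes in each count table. The photoreceptor channel genes *trp* and *trpl* were left out. Other family members, *nompC*, *Pkd2* and the *brv* genes, are also outside the 9, so the set does not hold every sensory TRP channel. The rule used no measured value, though earlier results of these data were known when it was written. All 9 matched a gene in the tables, and 7 passed a filter of at least 10 counts in at least 3 libraries, as did 11915 genes in all. *nan* and *Trpml* did not pass and were not tested.

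TRP channels are membrane pores that let calcium and other cations into a cell when heat, chemicals, stretch or second messengers open them. In flies, different members serve hearing, the senses of temperature and humidity, pain, and the avoidance of irritant chemicals, and some work inside the cell. Taste neurons use certain members too: *TrpA1* and *pain* are known for the rejection of irritant compounds.

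The study asked how a high-sugar diet changes translated mRNAs in sweet-sensing *Gr5a+* taste neurons when OGT, the enzyme that adds O-GlcNAc to proteins, is inhibited. Flies of the genotype *Gr5a>UAS-Rpl3-3XFLAG* make a FLAG-tagged ribosomal protein under the *Gr5a* driver, and mRNAs bound to tagged ribosomes were pulled down from head lysates (translating ribosome affinity purification, TRAP). The sugar diet (SD + OSMI) held 30% sucrose and the control diet (CD + OSMI) 5% sucrose. Both held 10 µM OSMI-1, an OGT inhibitor, with DMSO as the solvent, so that every fly received the inhibitor. Males were taken 2 days after eclosion, kept at 35 to a vial, put on the diets on day 5 and sampled on day 12. Each diet had 3 biological replicates of 300 pooled heads, numbered 4 to 6 for SD + OSMI and 1 to 3 for CD + OSMI. Without an unenriched input or flies without the inhibitor in this comparison, enrichment in *Gr5a+* neurons and the effect of OSMI-1 itself were not analysed here. The paper did compare the pulled-down fraction with input, and reports sweet receptor genes enriched and bitter receptor genes depleted in it.

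Total counts were 13324513 to 16122009 for SD + OSMI and 15252054 to 15263033 for CD + OSMI libraries. The defining receptors of the labelled neurons were near the floor. The sweet receptor gene *Gr5a* had 0.95, 0.689 and 0.828 CPM (counts scaled to a common library size after TMM normalisation) on SD + OSMI, against 2.00, 0.549 and 0.908 CPM on CD + OSMI. The 9 sweet receptor genes summed to 3.09 to 5.19 CPM on SD + OSMI and 2.68 to 5.75 CPM on CD + OSMI. Within that sum 4 genes, *Gr64b* to *Gr64e*, were at 0 in every library. They share 97.3% to 100% of their exon bases with genes on the same strand, so their zeros were not read as levels. By contrast, 10 photoreceptor genes summed to 21470 to 25797 CPM on SD + OSMI and 23341 to 29919 CPM on CD + OSMI. Transcripts of other head cells were thus present in every library, and the levels below cannot be assigned to *Gr5a+* neurons. Of 25 testis and sperm genes, 14 were called higher on SD + OSMI and 0 lower (edgeR adjusted p under 0.1). Over all genes tested, 6.91% were called higher and 2.18% lower. The testis list summed to 2380, 3888 and 3330 CPM on SD + OSMI, against 1988, 1348 and 1882 CPM on CD + OSMI. Every SD + OSMI library was above every CD + OSMI library in this testis sum. A fit with the testis sum as a covariate thus cannot tell it and the diet apart. That fit called 21 genes in all, against 1083 without the covariate. Of 8 fat body genes tested, 7 were called lower and 0 higher, and the 9 listed summed to 7887, 6370 and 6428 CPM on SD + OSMI, against 9064, 11270 and 9547 CPM on CD + OSMI. In such pooled material, fewer cells of a type and less RNA per cell cannot be told apart.

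None of the 7 tested TRP channel genes was called changed on the sugar diet. With edgeR's quasi-likelihood test at a Benjamini-Hochberg adjusted p under 0.1, 0 of 7 were called higher and 0 of 7 lower. Over all genes tested, 6.91% were called higher and 2.18% lower. Before adjustment, 0 genes had a p under 0.05 in either direction, and DESeq2 and limma-voom each called 0. The lowest adjusted p was 0.355, for *iav*. The median log2 fold change (SD + OSMI over CD + OSMI, here and throughout) was -0.02 over the 7 genes and -0.003 over all genes tested, with 4 of the 7 negative and 3 positive. The interval of each difference was also set against a limit of 1.5-fold in an equivalence test (DESeq2 fold change and SE, q under 0.05). By that test *wtrw*, *Trpm*, *pain* and *pyx* were practically equivalent between the diets, 4 of 7 against 47.1% of all genes tested, so that equivalence does not set these genes apart. For *TrpA1*, *iav* and *Trpgamma*, the equivalence test was not passed.

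**Figure D1:**
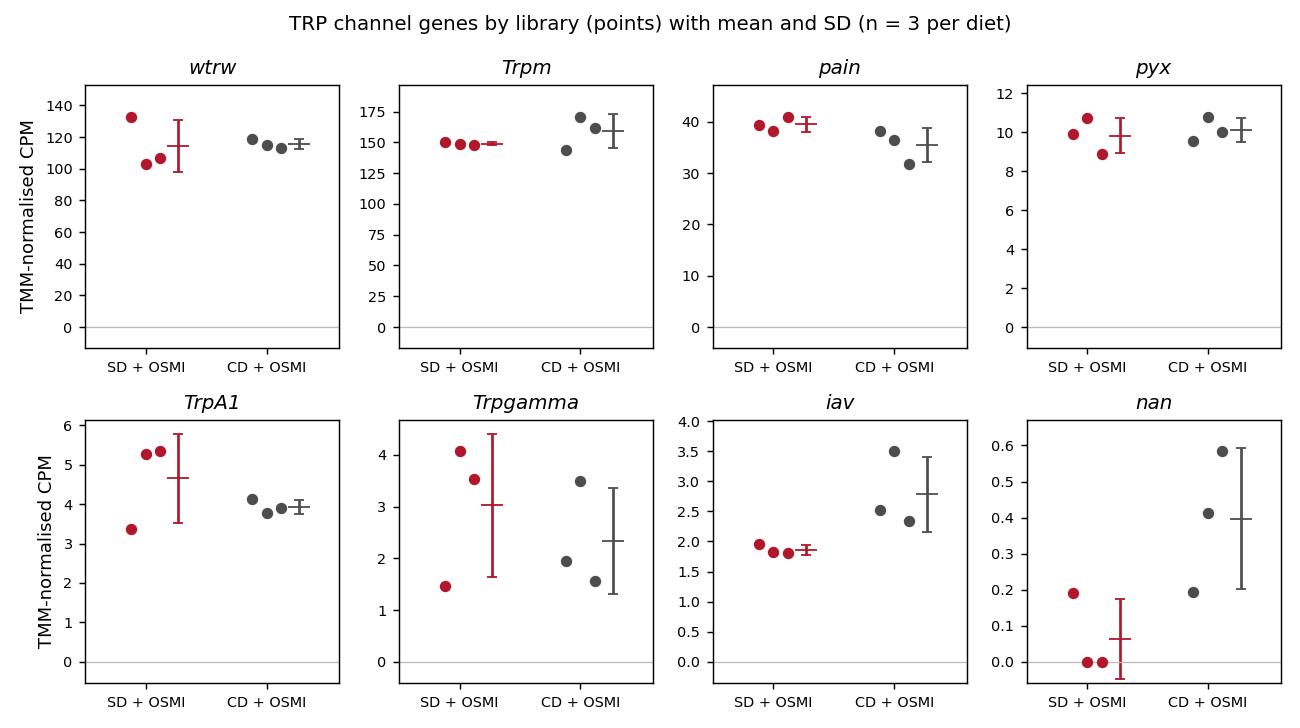
TMM-normalised CPM (vertical axis, a separate linear scale per gene) of the 8 TRP channel genes with reads. Points are libraries, SD + OSMI left (red) and CD + OSMI right (grey), and the bars beside them are the mean and SD (n = 3). The diets overlap in every panel except *iav* and *nan*, where each SD + OSMI library lies below each CD + OSMI library.

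The genes covered a wide range of levels. Per kb of exon, so that genes of different length can be compared, *wtrw* averaged 26.3 CPM per kb over the 6 libraries, *Trpm* 15.9, *pain* 12.3, *pyx* 2.47, *TrpA1* 0.818, *iav* 0.662, *Trpgamma* 0.503 and *nan* 0.0807 CPM per kb. Each of *wtrw*, *Trpm*, *pain* and *pyx* lay above the next gene in that order in all 6 libraries. *TrpA1* (0.64 to 1.02 CPM per kb) overlapped *iav* (0.514 to 0.996 CPM per kb), and *iav* overlapped *Trpgamma* (0.274 to 0.765 CPM per kb). *nan* (0 to 0.205 CPM per kb) was below *Trpgamma* in every library. *Trpm*, *wtrw* and *pain* together made up 93% to 95% of the summed CPM of the 9 genes. That sum was 312 to 339 CPM on SD + OSMI and 320 to 344 CPM on CD + OSMI, and the 2 ranges overlapped. For scale, *Gr5a* averaged 0.663 CPM per kb, close to *iav*, and the photoreceptor channels *trp* and *trpl* averaged 422 and 482 CPM per kb. In each library the summed CPM of *trp* and *trpl* was 10.3 to 11.8 times that of the 9 genes.

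**Figure D2:**
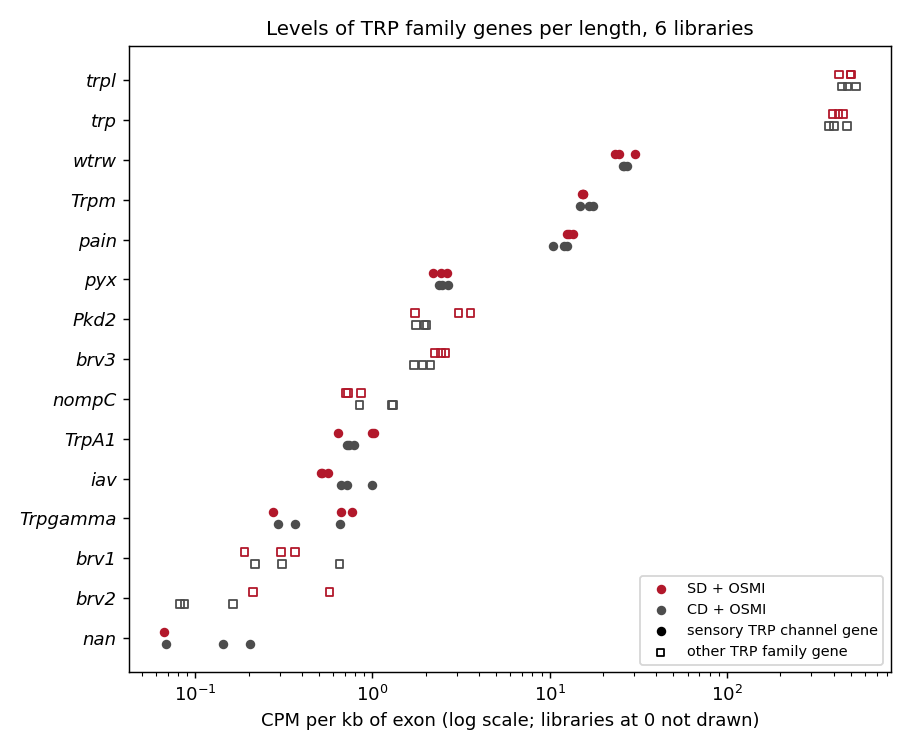
CPM per kb of exon (horizontal log axis) of the TRP family genes with reads, ordered by their mean; each point is a library, red for SD + OSMI and grey for CD + OSMI. Filled circles are the sensory TRP channel genes and open squares the other family members. The levels run down from *trpl* and *trp*, at 482 and 422 CPM per kb on average, through *wtrw* at 26.3 to *nan* at 0.0807.

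Among the TRPA genes, *wtrw* (water witch, a channel needed for sensing moist air) lies at 3R:7891331-7901147 on the plus strand of BDGP6. It was at 133, 103 and 107 CPM in SD + OSMI libraries, against 119, 115 and 113 CPM in CD + OSMI libraries. Replicate 4 on SD + OSMI was the highest of the 6 and the other two SD + OSMI libraries were the lowest. The log2 fold change was -0.02 ± 0.10 (SE, edgeR; 95% interval -0.23 to 0.19; adjusted p = 0.932), and the equivalence q was 7.4e-06. Its replicates varied more than counting alone gives, at a within-diet chi-square per degree of freedom of 18.8. That measure grows with the number of counts, 10423 for *wtrw*, and does not rank the genes by relative spread. As *wtrw* was the gene of highest level per kb, the genes most like it over the 6 libraries were looked up among 8319 genes with a mean of at least 5 CPM. The Pearson r of log2 CPM was 0.989 for *CG3342*, 0.986 for *asRNA:CR44137* and 0.978 for *jumu*, a forkhead transcription factor gene, and 82 genes had an r over 0.9. These 3 genes were likewise highest in replicate 4 on SD + OSMI, and with 6 points from shared libraries the likeness is a description.

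*pain* (painless) encodes a channel of larval nociceptive neurons that is needed for the response to noxious heat and harsh touch. It lies at 2R:24921505-24928275 on the minus strand. It was at 39.3, 38.1 and 41.0 CPM on SD + OSMI, against 38.1, 36.4 and 31.7 CPM on CD + OSMI. All SD + OSMI libraries were at or near the top, but the lowest of them and the highest CD + OSMI library could not be separated. The log2 fold change of 0.16 ± 0.10 (SE; 95% interval -0.06 to 0.38) did not pass the test (edgeR adjusted p = 0.41), and the equivalence q was 0.00134. This interval corresponds to 0.959-fold to 1.30-fold.

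*pyx* (pyrexia) encodes a channel opened by high temperature that protects flies from heat-induced paralysis. It lies at 3L:217932-223069 on the minus strand. SD + OSMI libraries had 9.88, 10.7 and 8.88 CPM, against 9.56, 10.8 and 9.99 CPM in CD + OSMI libraries. The diets overlapped fully, and the replicates varied no more than counting gives, at a chi-square per degree of freedom of 0.929. Between the diets, the log2 fold change was -0.04 ± 0.17 (SE; 95% interval -0.41 to 0.32; edgeR adjusted p = 0.92). Its equivalence q was 0.0128, which became 0.053 without replicate 1 on CD + OSMI and 0.0659 without replicate 5 on SD + OSMI, so that *pyx* was then no longer called equivalent.

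*TrpA1* encodes the channel for warmth and for reactive electrophiles such as those of mustard and wasabi, and is known from bitter-sensing taste neurons. It lies at 3L:8894404-8905200 on the minus strand. It was at 3.36, 5.26 and 5.34 CPM on SD + OSMI, against 4.13, 3.77 and 3.89 CPM on CD + OSMI. Replicate 4 was below every CD + OSMI library and replicates 5 and 6 were above every one. With replicates so far apart, the log2 fold change was 0.24 ± 0.27 (SE; 95% interval -0.33 to 0.81; edgeR adjusted p = 0.656; equivalence q = 0.208). It was 0.44 without SD + OSMI replicate 4 and 0.14 without replicate 5 or without replicate 6. With the testis sum as a covariate it was -0.35, in a fit that cannot tell that sum and the diet apart. *TrpA1* was not called in any of these fits. The 8 bitter receptor genes, markers of neurons in which *TrpA1* is known, summed to 1.65, 2.69 and 2.56 CPM on SD + OSMI, against 2.13, 2.06 and 1.95 CPM on CD + OSMI. Replicate 4 on SD + OSMI was the lowest library for this sum as it was for *TrpA1*. However, 0 of the 8 genes passed the count filter, and no gene of the 8 was lowest in that library alone. The part of the bitter neurons in the *TrpA1* values was not tested.

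The TRPV genes *iav* (inactive) and *nan* (nanchung) encode subunits that act together in the chordotonal neurons of the antennal hearing organ. *iav* lies at X:6813978-6818156 on the plus strand. It was at 1.96, 1.82 and 1.81 CPM on SD + OSMI, against 2.52, 3.50 and 2.34 CPM on CD + OSMI. Every SD + OSMI library was below every CD + OSMI library, a pattern that 10.2% of all genes tested also had. The log2 fold change was -0.58 ± 0.34 (SE; 95% interval -1.30 to 0.15), and it did not pass the test (edgeR adjusted p = 0.355). It was -0.38 without CD + OSMI replicate 2, the library with the highest *iav* level. With the testis sum as a covariate it was -0.10, in a fit that cannot tell that sum and the diet apart. From 84 counts on SD + OSMI and 126 on CD + OSMI, the ratio of count rates was 0.673, with a 95% exact interval of 0.505 to 0.894 that covers counting error only.

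*nan* lies at 3L:14186249-14189648 on the minus strand. It had 3, 0 and 0 counts on SD + OSMI, against 3, 6 and 9 counts on CD + OSMI. The 3 counts of SD + OSMI replicate 4 and of CD + OSMI replicate 1 gave 0.19 and 0.194 CPM, so the diets were next to each other at their nearest libraries. The ratio of count rates, 3 against 18 counts, was 0.168, with a 95% exact interval of 0.0318 to 0.576 for counting error only. With no filter on counts, edgeR gave an adjusted p of 0.31 for *nan*, so the difference was not called. Both TRPV genes thus had fewer counts on SD + OSMI, and neither difference passed the test over replicates.

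*Trpgamma*, of the TRPC group, is related to the photoreceptor channels and is known for the fine control of leg movements through stretch-sensing neurons. It lies at 2L:16663454-16676701 on the minus strand. It was at 1.46, 4.07 and 3.54 CPM on SD + OSMI, against 1.94, 3.50 and 1.56 CPM on CD + OSMI. The libraries fell into high and low values on both diets, with SD + OSMI replicate 4 the lowest of all. The within-diet chi-square per degree of freedom was 8.39, far above counting noise for a gene of this level. On average the log2 fold change was 0.37 ± 0.42 (SE; 95% interval -0.53 to 1.28; edgeR adjusted p = 0.659; equivalence q = 0.433). With a library left out, the log2 fold change was 0.09 without SD + OSMI replicate 5, and leaving out CD + OSMI replicate 3 gave 0.15. It was 0.73 without SD + OSMI replicate 4, and 0.79 when CD + OSMI replicate 2 was left out. It was not called in any of these fits.

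*Trpm* encodes the TRPM channel of the fly, which is known for magnesium and zinc balance and for larval responses to cold. It lies at 2R:15262808-15309368 on the minus strand and has 11 annotated transcripts. It was at 150, 149 and 148 CPM on SD + OSMI, against 144, 171 and 162 CPM on CD + OSMI. The 3 SD + OSMI libraries lay within the CD + OSMI range. Their log2 fold change was -0.10 ± 0.08 (SE; 95% interval -0.28 to 0.08; edgeR adjusted p = 0.557), and the equivalence q was 7.69e-06.

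*Trpml* encodes a channel of lysosomes and late endosomes whose human counterpart is lost in mucolipidosis type IV. It lies at 3L:19714418-19718328 on the minus strand. Its row held 0 counts in all 6 libraries, which allows up to 0.0331 CPM over all libraries together, for counting error only. No exon base of *Trpml* is shared with another counted gene in the annotation used here. A neighbouring gene on the same strand, *CG42637*, 1198 bases away, had 1 count in all. The annotation release of the authors' count is not given in the sources used here, so the row was not read as a level of *Trpml*.

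**Figure D3:**
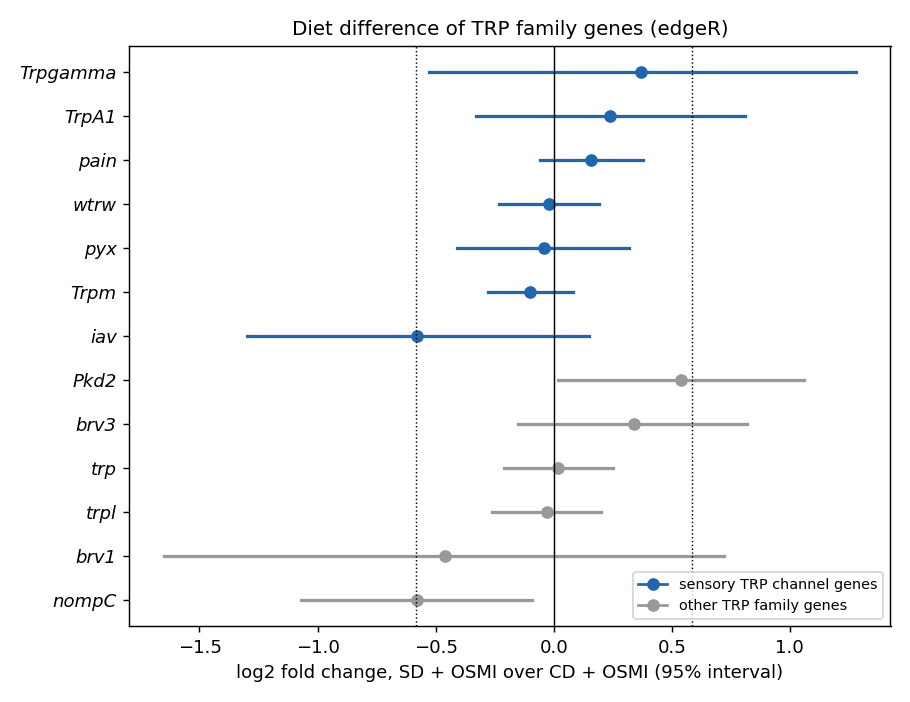
Log2 fold change of SD + OSMI over CD + OSMI (points) with its 95% interval (lines, edgeR) for the 7 sensory TRP channel genes tested (blue) and 6 other TRP family genes (grey). The dotted lines mark 1.5-fold in either direction. The intervals of *pain*, *wtrw*, *pyx* and *Trpm* lie inside these lines, and those of *Trpgamma*, *TrpA1* and *iav* cross them.

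Several genes overlap the TRP genes on the chromosome, and whether reads were counted by strand is not given in the sources used here. Among protein-coding genes with all exon bases shared on the same strand, 96.9% were at 0 in every library, against 4.69% of those with all exon bases shared on the opposite strand only. Overlap on the opposite strand thus did not empty a gene's row, and no TRP gene shared an exon base on its own strand. *pain* shares 173 exon bases with *NaCP60E*, a voltage-gated sodium channel gene on the opposite strand. *NaCP60E* fell to 573, 471 and 461 CPM on SD + OSMI, against 583, 689 and 604 CPM on CD + OSMI (log2 fold change -0.32 ± 0.10 SE, edgeR adjusted p = 0.0951), while *pain* was not called. The *NaCP60E* call was lost without CD + OSMI replicate 2 or 3 (edgeR adjusted p = 0.259 and 0.201). It was also lost without SD + OSMI replicate 5 or 6 (edgeR adjusted p = 0.359 and 0.301). These fits called 199, 214, 168 and 76 genes in all, against 1083 with every library, so the loss is not particular to *NaCP60E*. With the testis sum as a covariate the log2 fold change of *NaCP60E* was 0.05 (edgeR adjusted p = 0.957), in a fit that cannot tell that sum and the diet apart. *wtrw* lies opposite *mRpS9*, a mitochondrial ribosomal protein gene with no shared exon base, which was at 33.9 ± 1.22 CPM on SD + OSMI and 34.9 ± 1.28 CPM on CD + OSMI (SD, n = 3 each). *ND-51L2*, nested in *Trpm* on the same strand with no shared exon base, was at 4.51 ± 1.30 CPM on SD + OSMI and 2.75 ± 0.988 CPM on CD + OSMI (SD, n = 3 each; edgeR adjusted p = 0.239). *pyx* shares 127 exon bases with *Kaz1-ORFB* and 477 with *CG13877*, both opposite, and *Trpm* shares 66 with *ItgaPS4*. None of these 3 was called (log2 fold changes of 0.12, 0.40 and 0.39). The noncoding *lncRNA:CR44241*, nested in *Trpm*, had 15 counts in all and was not tested, and a transfer RNA pseudogene opposite *TrpA1* was at 0 in every library.

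The other TRP family genes gave the same count as the sensory channels. Of 7 listed, 6 were tested, with 0 called higher and 0 lower, against 6.91% and 2.18% of all genes tested. Their median log2 fold change was -0.01. *nompC*, a mechanically gated channel of touch and hearing neurons, was at 5.00, 4.89 and 5.95 CPM on SD + OSMI, against 5.81, 8.85 and 9.02 CPM on CD + OSMI. Its log2 fold change was -0.58 ± 0.23 (SE; edgeR adjusted p = 0.157, not passed), the same size as that of *iav*. *Pkd2*, a polycystin channel known for sperm movement, was at 5.70, 11.7 and 10.0 CPM on SD + OSMI, against 6.46, 5.76 and 6.62 CPM on CD + OSMI (log2 fold change 0.54 ± 0.25 SE, edgeR adjusted p = 0.22). Its highest libraries, replicates 5 and 6 on SD + OSMI, were also the highest in the testis sum, whose part in these values was not tested. *trp* and *trpl* had log2 fold changes of 0.02 and -0.03, and both were practically equivalent. Leaving out SD + OSMI replicate 4 gave 1 higher call among these genes, and leaving out CD + OSMI replicate 1 gave 1 lower call.

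Genes of the phospholipase C cascade, which opens TRPC channels in photoreceptors, had 0 of 10 called in either direction. Over all genes tested, 6.91% were called higher and 2.18% lower. The cascade's median log2 fold change was -0.14, with 9 of 10 negative. All 10 were practically equivalent, against 47.1% of all genes tested, a share not matched for level. So were 10 of 10 photoreceptor, 9 of 9 general neuronal and 7 of 7 glial genes, but 4 of 8 muscle and 0 of 8 fat body genes. Equivalence thus does not set the cascade apart. Marker genes of neurons also leaned negative. The 9 general neuronal genes were all negative, with a median log2 fold change of -0.18 and a sum of 9097, 7351 and 7881 CPM on SD + OSMI, against 9165, 9687 and 8807 CPM on CD + OSMI, and edgeR called 0 of them. Of 10 photoreceptor genes 9 were negative (median -0.06), and of 7 glial genes 6 were negative (median -0.07), with 0 called on either list by edgeR. DESeq2 called 1 neuronal and 1 glial gene lower. The part of the cell makeup in the values of the cascade was not tested. The smallest p was that of *Plc21C*, a phospholipase C gene, with 346, 299 and 296 CPM on SD + OSMI, against 343, 419 and 383 CPM on CD + OSMI (log2 fold change -0.28 ± 0.10 SE, edgeR adjusted p = 0.111). DESeq2 called 1 of the 10 lower, as did edgeR with RLE factors, with no filter, with a filter of at least 50 counts, or without CD + OSMI replicate 1. Without SD + OSMI replicate 4 edgeR called 4 lower.

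Genes of chordotonal organs and sensory cilia, the structures in which *iav* and *nan* work, had 0 of 18 tested called in either direction by edgeR. The median log2 fold change was -0.12. *btv* (beethoven), a dynein heavy chain of hearing neurons, was at 14.4, 9.65 and 10.7 CPM on SD + OSMI, against 14.8, 19.4 and 16.4 CPM on CD + OSMI. Its groups did not overlap, and its log2 fold change of -0.54 ± 0.18 (SE) fell at the threshold (edgeR adjusted p = 0.10, not passed). DESeq2 called 1 gene of this list lower, as did edgeR with RLE or upper-quartile factors, with no filter, without the male reproductive lists, without SD + OSMI replicate 4 or without CD + OSMI replicate 1. Limma-voom and the other edgeR alternatives called 0. *Klp64D*, a kinesin that builds cilia, was at 34.9, 33.9 and 34.3 CPM on SD + OSMI, against 42.2, 40.2 and 39.8 CPM on CD + OSMI (log2 fold change -0.24 ± 0.09 SE, edgeR adjusted p = 0.146). *Oseg5*, an intraflagellar transport gene, had a log2 fold change of 1.06 ± 0.57 (SE) from under 1.5 CPM in every library (edgeR adjusted p = 0.301).

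Of 8 other receptor genes for heat, humidity and touch that were tested, 1 was called lower and 0 higher, with a median log2 fold change of 0.03. The gene was *subdued*, which encodes an anoctamin chloride channel of nociceptive neurons. It fell to 71.4, 71.8 and 69.2 CPM on SD + OSMI, against 77.1, 88.2 and 90.7 CPM on CD + OSMI (log2 fold change -0.27 ± 0.09 SE, edgeR adjusted p = 0.0915). This call was lost, with 0 of the list called lower, without replicate 5 or 6 on SD + OSMI or without replicate 2 or 3 on CD + OSMI (edgeR adjusted p = 0.231 to 0.293). Calls over all genes also fell in these fits, to 76 to 214 from 1083. Limma-voom also called 0. With the testis sum as a covariate the log2 fold change of *subdued* was -0.20 (edgeR adjusted p = 0.823), in a fit that cannot tell that sum and the diet apart. *Piezo*, a stretch-gated channel gene, averaged 21.6 CPM per kb, between *wtrw* and *Trpm*, and had a log2 fold change of 0.11 ± 0.09 (SE; edgeR adjusted p = 0.534). *rpk*, an epithelial sodium channel family gene, had a log2 fold change of 0.67 ± 0.39 (SE), and *Ir25a*, a coreceptor for temperature and humidity, had -0.43 ± 0.26 (SE). Neither passed (adjusted p = 0.344 and 0.372).

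Among 13 lysosome genes tested, the setting in which *Trpml* acts, 1 was called lower and 0 higher, with a median log2 fold change of 0.09 and 11 of 13 practically equivalent. *Mitf*, a transcription factor gene that controls lysosome genes, fell to 79.5, 67.6 and 68.4 CPM on SD + OSMI, against 85.6, 89.9 and 85.3 CPM on CD + OSMI (log2 fold change -0.27 ± 0.09 SE, edgeR adjusted p = 0.0898). This call was lost when any library other than SD + OSMI replicate 4 was left out, and without that library 2 genes of the list were called lower. Where the call was lost, calls over all genes also fell from 1083 to 76 to 214, except without CD + OSMI replicate 1, at 1107. Limma-voom did not call *Mitf* (adjusted p = 0.11). With the testis sum as a covariate the log2 fold change of *Mitf* was -0.05 (edgeR adjusted p = 0.966), in a fit that cannot tell that sum and the diet apart. *CtsL1*, a cathepsin gene, was at 90.8, 96.8 and 96.8 CPM on SD + OSMI, against 89.2, 71.9 and 74.4 CPM on CD + OSMI (log2 fold change 0.27 ± 0.09 SE, edgeR adjusted p = 0.111, not passed). *Lamp1* and *CtsB*, a lysosomal membrane protein gene and another cathepsin gene, had log2 fold changes of 0.16 and 0.12 and did not pass.

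Among zinc and magnesium handling genes, the processes *Trpm* is known for, 2 of 17 tested were called higher and 0 lower, with a median log2 fold change of -0.03. *Catsup*, a zinc transporter of the secretory pathway, rose to 18, 20.3 and 21.4 CPM on SD + OSMI, against 13.8, 14.8 and 13.8 CPM on CD + OSMI (log2 fold change 0.50 ± 0.14 SE, edgeR adjusted p = 0.0592). *ZnT35C*, a zinc exporter gene, rose to 4.50, 10.5 and 7.53 CPM on SD + OSMI, against 4.39, 2.74 and 3.50 CPM on CD + OSMI (log2 fold change 1.08 ± 0.31 SE, edgeR adjusted p = 0.0644). The 6 libraries stood in the same order for *ZnT35C* as for the testis sum given above, highest in SD + OSMI replicate 5 and lowest in CD + OSMI replicate 2. With the testis sum as a covariate, *Catsup* was at 0.41 and *ZnT35C* at -0.25 on the log2 scale, 0 of the 17 genes were called, and as that sum separates the diets, it and the diet cannot be told apart. The count of higher calls was 0 without CD + OSMI replicate 2 or 3 or SD + OSMI replicate 5 or 6, and 1 without CD + OSMI replicate 1. Where it was 0, calls over all genes had also fallen, to 76 to 214 from 1083. *uex*, a magnesium transporter gene, had a log2 fold change of -0.19 ± 0.08 (SE), and *Zip48C*, a zinc importer gene, had 0.32 ± 0.15 (SE). Neither passed (edgeR adjusted p = 0.17 and 0.223).

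**Figure D4:**
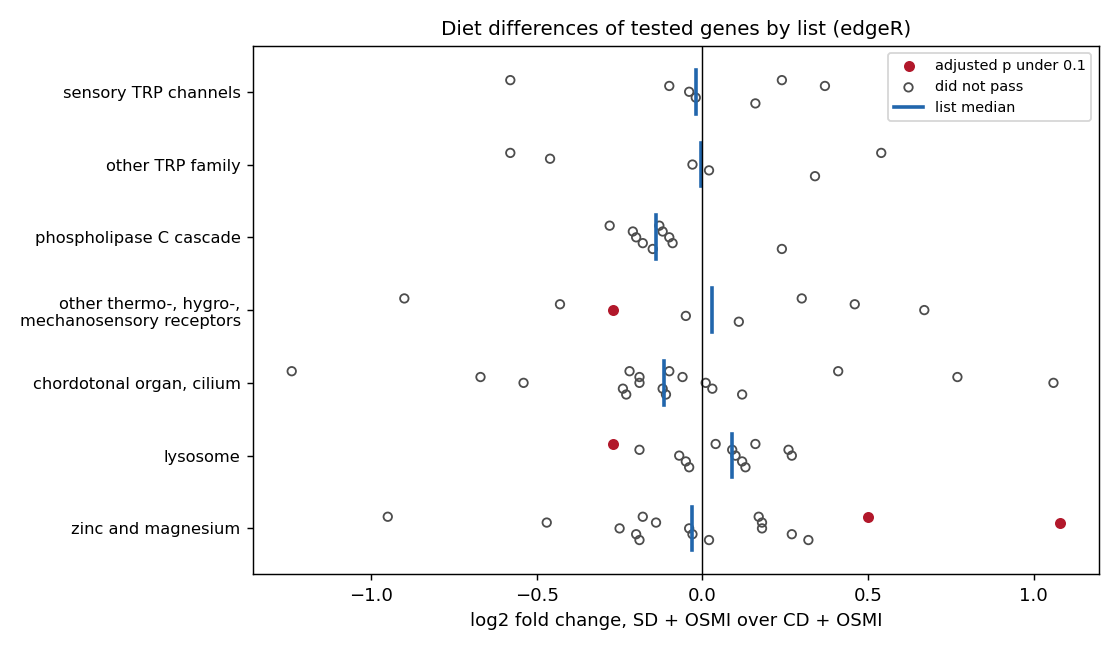
Log2 fold change of SD + OSMI over CD + OSMI for each tested gene (points), by gene list. Red points passed an edgeR adjusted p under 0.1, open points did not, and blue lines are list medians. No sensory TRP channel gene is red, and the 4 red points are *subdued*, *Mitf*, *Catsup* and *ZnT35C*.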

How the data were processed

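The deposited files were raw counts of reads per gene for 6 TRAP libraries, with no normalization. Per the paper's methods and the submitters' processing notes, the authors aligned reads with STAR to BDGP6 (dm6), used SAMtools 1.4, counted with HTSeq and tested diets with DESeq2 1.18.0. Positions and exons came from the Ensembl annotation of BDGP6, which held 17215 of the 17489 genes.

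The analysis used edgeR 4.0.16 in R 4.3.3 (TMM factors, robust quasi-likelihood F test, diet as the only term), limma 3.58.1 and DESeq2 1.42.0. Tables and plots used Python 3.11.15 with pandas 2.3.3, scipy 1.17.1 and matplotlib 3.10.9. The SE is the size of the log2 fold change divided by the square root of F. TMM factors were 0.956 to 1.04, and 3 counts equal 0.188 to 0.226 CPM per library. The chi-square per degree of freedom between replicates of a diet was 10.4 to 32.8, where sampling alone gives about 1. The test was checked on simulated counts.

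Members, gene lists and tests were chosen with earlier results of these data known. Named genes are the members, at most 4 genes of smallest p per related list, genes that overlap a member, and the 3 most like *wtrw*. *Piezo*, the *trp* and *trpl* values, *fd3F* and *nompB* were added as further examples once the values were known. The list entries *Tmc*, *CtsD* and *wupA* matched no counted gene. Sequence reads were not analysed here.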

Additional observations from a re-analysis of the deposited data

How the results depend on the processing

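Under 16 alternatives (DESeq2, limma-voom, RLE or upper-quartile factors, no filter or at least 50 counts, an adjusted p under 0.05, leaving out the 20 most abundant genes, the male reproductive lists or each library in turn, and the testis sum as a covariate), 0 tested TRP channel genes were called higher and 0 lower. *iav* and *Trpgamma* had 15 of these, as they did not reach 50 counts. Genes called in all were 1083 in the main fit and ranged from 21 with the covariate to 2434 without SD + OSMI replicate 4. They were 168 and 76 without SD + OSMI replicate 5 or 6, and 199 and 214 without CD + OSMI replicate 2 or 3. The lowest adjusted p of a TRP channel gene was 0.235, for *Trpgamma*. The log2 fold change of *iav* ranged from -0.69 to -0.10, of *pain* from 0.08 to 0.22, of *TrpA1* from -0.35 to 0.44 and of *Trpgamma* from 0.02 to 0.79. With the testis sum as a covariate the direction turned for *pyx* (0.02), *TrpA1* (-0.35), *Trpm* (0.04) and *wtrw* (0.23), at edgeR adjusted p of 0.774 to 0.993. As that sum separates the diets, it and the diet cannot be told apart in this fit, and these signs were not read further. Leaving out each library gave -0.11 to 0.03 for *pyx* and -0.13 to 0.05 for *wtrw*. Practically equivalent genes numbered 3 or 4 with a library left out, and 5 with a 2-fold limit, which adds *TrpA1* (q = 0.0109). Lengths of the longest transcript gave the same order of levels. No paired analysis was possible because the replicate numbers are not shared between the diets. *iav* and *nan* had 210 and 21 counts over the 6 libraries. For *iav*, counting error alone gave a ratio of 0.505 to 0.894, against an edgeR interval over replicates of 0.406 to 1.11. For *TrpA1* and *Trpgamma*, counting error alone gave ratios of 0.956 to 1.44 and 0.998 to 1.69. Their edgeR intervals over replicates were wider, at 0.794 to 1.76 and 0.693 to 2.43. What limits each of these genes was not tested.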

Other observations

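A pair of genes tied to the chordotonal neurons stood out in a single control library, chosen here after their values were seen. *fd3F*, a forkhead transcription factor gene known to switch on mechanosensory genes of these neurons, *iav* and *nan* among them, had 0, 1 and 0 counts on SD + OSMI, against 0, 0 and 16 counts on CD + OSMI. *Dhc93AB*, an axonemal dynein heavy chain gene, was at 25.1, 16.9 and 18.5 CPM on SD + OSMI, against 22.8, 38.6 and 81.3 CPM on CD + OSMI (log2 fold change -1.24 ± 0.56 SE, edgeR adjusted p = 0.312). CD + OSMI replicate 3 was the highest library for both, and also for *nan*, with 9 counts, but it was the lowest of the CD + OSMI libraries for *iav*, at 2.34 CPM. The rest of the list did not share this pattern as a whole: of 21 chordotonal and cilium genes, 7 were highest in CD + OSMI replicate 3, 6 in CD + OSMI replicate 2 and 4 in CD + OSMI replicate 1. SD + OSMI replicates 4, 5 and 6 were highest for 1, 1 and 2 genes. The same shares over all genes were not counted. *btv* was highest in CD + OSMI replicate 2, at 19.4 CPM against 16.4 CPM in CD + OSMI replicate 3. *nompB*, an intraflagellar transport gene, was lowest of all 6 libraries in CD + OSMI replicate 3, at 2.53 CPM, close to 2.57 CPM in SD + OSMI replicate 5.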
